A study of Mus musculus with 15 samples.

Results

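Loss of the remaining copy of Notch3 was compared between brain vascular cells and aorta, gene by gene: the difference between Notch3 -/- and Notch3 +/- mice was taken in each tissue, and the aortic difference was subtracted from the brain difference. Below, "the difference between tissues" means this subtraction, so a negative value says that the Notch3 -/- level was further down, or less far up, in brain than in aorta. All 15 of the 15 arrays of the series entered, chosen by the tissue and genotype in their titles. Brain cells were labelled SMC/pericyte (smooth muscle cells and pericytes) and had been isolated by fluorescence sorting from 4 Notch3 +/- mice and 5 Notch3 -/- mice. Aorta explants, pieces of aorta with whatever cells they held, gave 3 arrays of Notch3 +/- and 3 of Notch3 -/-. Every mouse was a male of strain C57BL6J aged 10 to 12 weeks, and every group carried at least 1 disrupted copy of Notch3, so no wild-type level enters. The labels do not tie each aorta array to its own mouse. Aortic p-values may therefore reflect technical spread between these arrays alone. The labels name neither the disrupted stretch of the gene nor the sort markers.

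Notch receptors are bound by Jagged and Delta ligands on neighbouring cells, cut by ADAM metalloproteases and gamma-secretase, and release an intracellular domain that enters the nucleus. There it joins the DNA-binding protein RBPJ and Mastermind coactivators and turns on genes of the Hes and Hey families. Notch3 is the family member made mainly by mural cells, the smooth muscle cells and pericytes that wrap vessels, and is known for the maturation of smooth muscle in small arteries, the brain's above all.

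Levels are deposited probe-set intensities on the authors' linear scale, and differences are in log2(value + 16), which understates changes of dim transcripts. A probe set was called dim in a tissue when both genotype means there were under 50, and bright when the tissue mean was in the top 0.5% of that tissue. Of 22519 probe sets tested, 3022 were dim in aorta (13.4%) and 1257 in brain (5.58%), with 93 in both (0.413%). At a limit of 100 they were 8249 (36.6%) and 7256 (32.2%). A change in a dim tissue could hardly be seen. Array maxima were 22148 to 44479 in brain and 12675 to 13169 in aorta, control probes left out. The summed intensity of 24 pericyte and mural markers was 49473 to 82881 in Notch3 +/- brain arrays and 42307 to 53239 in Notch3 -/- brain arrays. Many markers of other cells were above the dim limit in the sorted brain cells too. None of 19 endothelial genes averaged under 50 in either brain group. The 11 oligodendrocyte genes summed to 31651 to 44307 and 35477 to 49613. Mbp alone read 19036.1 to 29569.9 and 19235.5 to 26121.8 of this, and 2 of the 11 averaged under 50 in each brain group. Of 11 neuronal genes 3 and 4 averaged under 50. In aorta the 35 contractile genes summed to 146969 to 151410 and 144325 to 156897, beside 14 adipocyte genes at 21142 to 27470 and 15107 to 25377. The spread between arrays of a group was larger in brain (median SD 0.31) than in aorta (median SD 0.17), and larger in brain at 83.0% of probe sets.

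Notch3 was lower in all Notch3 -/- arrays than in any Notch3 +/- array of its tissue, and the fall was deeper in brain. At the brighter of its probe sets the brain arrays read 2326, 2558, 2775 and 2805 in Notch3 +/- and 150, 206, 217, 228 and 249 in Notch3 -/-. The aorta arrays read 362, 387 and 453 in Notch3 +/- and 80.1, 97.9 and 146 in Notch3 -/-. The brain fall was -3.56 (log2; limma adjusted p = 3.645e-10) and the aortic fall -1.78 (adjusted p = 0.0008681; 0.135 in a fit of the 6 aorta arrays alone). The difference between tissues was -1.78 (SE 0.25, 95% interval -2.31 to -1.24, limma adjusted p = 0.0117). It did not pass without aorta +/- replicate 5561 (adjusted p = 0.0683) or 6166 (0.0824). Residual signal in Notch3 -/- arrays averaged 210 in brain and 108 in aorta, and what the probes detect there was not tested. Notch3 +/- aorta arrays started far lower than brain ones, so residual signal leaves less room for a log2 fall in aorta. The part of this limit in the difference between tissues was not tested. The dimmer probe set, which was dim in aorta, read 165 ± 14.3 (SD, n = 4) and 38.5 ± 16.2 (n = 5) in brain and 37.4 ± 3.66 and 17.9 ± 5.09 (n = 3 each) in aorta, and its difference between tissues of -1.11 did not pass (adjusted p = 0.568). An exact two-sided permutation test over the 2520 ways to assign genotypes within tissues gave p = 0.2452 for the brighter probe set. Its null is no genotype effect in either tissue.

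Beside Notch3, 3 genes passed for the difference between tissues (4 probe sets of 22519, 0.0178%; 3 negative, 0.0133%, and 1 positive, 0.00444%). With an unadjusted p under 0.05 there were 1071 probe sets (4.76%). The 3 genes gave 3 different patterns: Casq2 fell in brain and was too dim to read in aorta, Depp1 fell in aorta and did not pass in brain, and Rrad had opposite signs in the tissues.

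Casq2 encodes calsequestrin 2, a calcium-storing protein of the sarcoplasmic reticulum in heart and smooth muscle. The brain arrays read 548, 601, 837 and 868 in Notch3 +/- and 129, 184, 189, 211 and 252 in Notch3 -/-, with no overlap. In aorta it read 20.4, 22.5 and 26.0 in Notch3 +/- and 25.6, 33.7 and 35.6 in Notch3 -/-, all under the dim limit of 50. Its brain fall was -1.80 (limma adjusted p = 0.0001064) and its difference between tissues -2.09 (SE 0.29, limma adjusted p = 0.0117). The latter includes an aortic difference of 0.29 from values too dim to read, so only the brain fall can be read as a level.

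Rrad encodes a Ras-related small GTPase that binds calcium channel beta subunits and lowers calcium current. Brain arrays read 1534, 1657, 1940 and 2577 in Notch3 +/- and 846, 982, 1156, 1191 and 1256 in Notch3 -/-. Aorta arrays read 614, 654 and 910 in Notch3 +/- and 1201, 1420 and 1878 in Notch3 -/-. The genotypes did not overlap in either tissue, lower without Notch3 in brain and higher without it in aorta. The brain difference of -0.80 passed (limma adjusted p = 0.0462, and 0.15 in the 9 brain arrays alone). The aortic difference of 1.03 did not (0.56), but did in the limma fit with 1 weight per tissue described below (adjusted p = 0.0209). The difference between tissues was -1.83 (SE 0.28, limma adjusted p = 0.0212).

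Depp1 encodes a small protein induced by FOXO transcription factors and by fasting. Aorta arrays read 43.9, 62.9 and 116 in Notch3 +/- and 7.5, 7.9 and 9 in Notch3 -/-, so every value without Notch3 lay under 10 and 2 of 3 values with 1 copy lay above 50. Brain levels were far above this range in both genotypes, at 1887 and 2309 on average. The aortic difference was -1.82 (adjusted p = 0.003436), the brain difference 0.27 (0.547), and the difference between tissues 2.10 (SE 0.30, adjusted p = 0.0117). With 64 in place of 16 added before log2 neither the difference between tissues (1.17, adjusted p = 0.173) nor the aortic one (-0.90, 0.4296) passed. A second probe set of Depp1 averaged 86.7 and 36.1 in aorta and 791 and 793 in brain, and neither its aortic difference (-0.98, adjusted p = 1) nor its difference between tissues (0.99, 0.8835) passed.

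**Figure D1:**
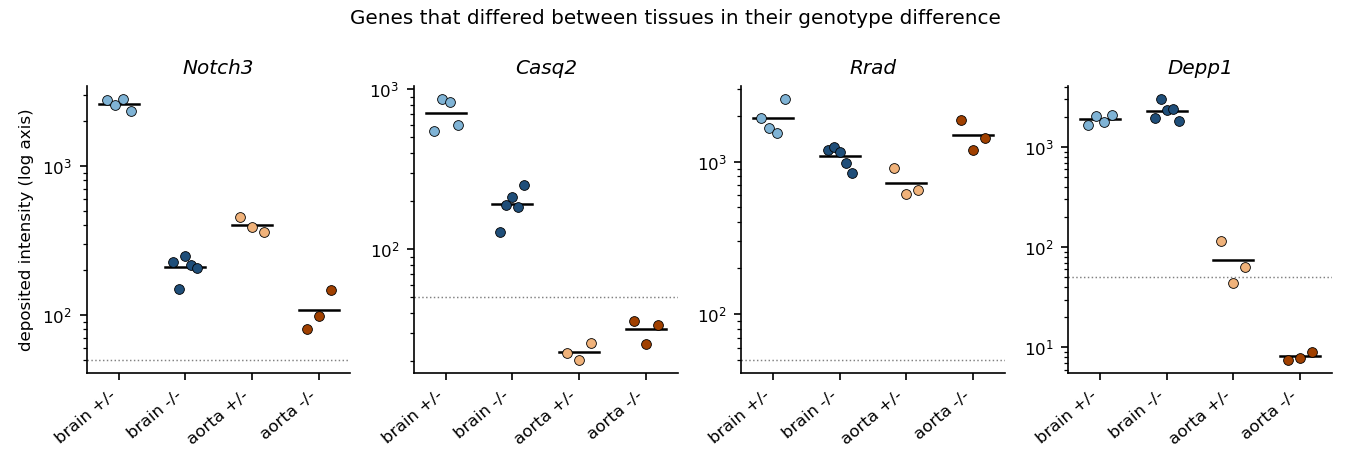
Deposited intensity (log axis) of the 4 genes past 5% for the difference between tissues, 1 point per array, in brain cells and aorta of Notch3 +/- and Notch3 -/- mice. Black lines are group means and the dotted line is the dim limit of 50. Genotypes do not overlap for Notch3 and Rrad in both tissues, for Casq2 in brain and for Depp1 in aorta, where all Notch3 -/- arrays lie under 10.

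These calls rested on few aorta arrays. None of the 4 passed without aorta +/- replicate 6166, where limma called 0 probe sets and 818 had an unadjusted p under 0.05. Depp1 alone passed without 5561, and Notch3 alone without aorta -/- replicate 5558. Without aorta +/- replicate 5556, 7 probe sets passed. Within the 2 aorta name series (55xx and 61xx) the difference between tissues was -1.50 and -2.33 for Notch3 and -2.11 and -2.05 for Casq2. It was -1.80 and -1.90 for Rrad, and 2.18 and 1.93 for Depp1. The 61xx series is replicate 6167 against replicate 6166 only, and both series are set against the same 9 brain arrays. The 4 genes were chosen in these arrays, so the kept signs are no independent evidence.

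RefSeq promoter windows (GRCm38.p6, 250 bases before to 50 after the start) were found for Casq2 and Depp1. They are shown because these called genes each passed in 1 tissue, Casq2 in brain and Depp1 in aorta. Casq2 was too dim to read in aorta. Rrad had no entry. The core of the RBPJ site, TGGGAA on either strand, is in capitals where a window holds it, and so is the CArG box, the site of serum response factor in muscle genes, searched on both strands. The Casq2 window lies at chr3:102086165-102086464 (+ strand) and holds no CArG box. The Depp1 window lies at chr6:116650434-116650733 (+ strand), with 1 match to the RBPJ core on the reverse strand, 173 bases before the start. The RBPJ core is in 25.6% of all 32851 windows and the CArG box in 1.63%. A match is no evidence of binding, and a missing match says only that these letters are not in the window.
Casq2: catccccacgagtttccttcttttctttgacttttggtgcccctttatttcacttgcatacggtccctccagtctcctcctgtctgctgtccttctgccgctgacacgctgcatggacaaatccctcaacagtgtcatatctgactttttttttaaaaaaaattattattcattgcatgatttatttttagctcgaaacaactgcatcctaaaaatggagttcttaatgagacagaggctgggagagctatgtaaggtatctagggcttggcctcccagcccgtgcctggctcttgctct
Depp1: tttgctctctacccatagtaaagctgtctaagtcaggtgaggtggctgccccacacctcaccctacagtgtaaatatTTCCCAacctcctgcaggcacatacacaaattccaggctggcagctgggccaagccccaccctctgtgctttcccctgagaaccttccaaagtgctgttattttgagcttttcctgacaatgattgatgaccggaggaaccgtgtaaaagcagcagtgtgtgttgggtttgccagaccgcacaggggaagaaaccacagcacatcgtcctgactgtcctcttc

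The larger spread in brain bears on how many transcripts pass. The fit that gave the 4 calls uses 1 spread for both tissues. With 1 weight per tissue, 15 probe sets passed (11 negative, 4 positive), and all 4 of the first were among them. A sum of separate fits for each tissue, added after seeing the data, called 19 (12 and 7), which included all 15. The genes that joined with tissue weights were Tagln, Myh11, Cacna1h, Tesc, Flna, Crip1, Myl9 and Crispld2 below 0 and Crnkl1, Glul and Tcim above 0, with adjusted p between 0.03455 and 0.04936. In the equal-spread fit these genes had adjusted p between 0.1367 and 0.2233, so none of them passed with 1 spread for both tissues.

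Tesc encodes tescalcin, a calcium-binding partner of the sodium-proton exchanger. It read 1150 to 2564 in Notch3 +/- brain and 251 to 765 in Notch3 -/- brain, and 201 to 219 and 167 to 345 in aorta. Its difference between tissues was -2.40 (SE 0.45). Cacna1h, a T-type calcium channel subunit, read 226 to 469 and 48.2 to 92.3 in brain. All its aorta arrays read 10.0 or less, so its -1.98 is a statement on brain only. Crispld2, a secreted protein, read 1170 to 2417 and 373 to 729 in brain and 1023 to 1382 and 1110 to 1259 in aorta. Its brain fall was -1.53 (adjusted p = 0.001075) and its aortic difference -0.07. Its 2 other tested probe sets fell in brain too (-1.68 and -2.03, adjusted p = 0.007026 and 0.001247) and stood at -0.06 and -0.16 in aorta, at Notch3 +/- averages of 15746 and 1820 in brain and 1506 and 426 in aorta.

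On the positive side, Tcim, a small regulator of transcription, read 266, 275 and 357 in Notch3 +/- aorta and 89.0, 117 and 141 in Notch3 -/- aorta, with overlapping brain arrays at means of 255 and 312. Its difference between tissues was 1.57 (SE 0.30). Fam107a, an actin-associated protein of astrocytes and other cells, stood higher without Notch3 in brain (6979 to 10238 against 10836 to 17097) and lower in aorta (492 to 1533 against 217 to 436), with no overlap in either tissue. Its 2.04 (SE 0.44) did not pass (adjusted p = 0.223), but did without aorta +/- replicate 5556 (0.01035), the array nearest to the Notch3 -/- range. Itgbl1, a secreted integrin-like protein, read 13.4 to 38.4 and 59.3 to 145 in brain and 3112 to 3453 and 3213 to 3691 in aorta. Its brain difference of 1.47 passed (adjusted p = 0.001247), and its 1.41 between tissues did not (0.251).

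**Figure D2:**
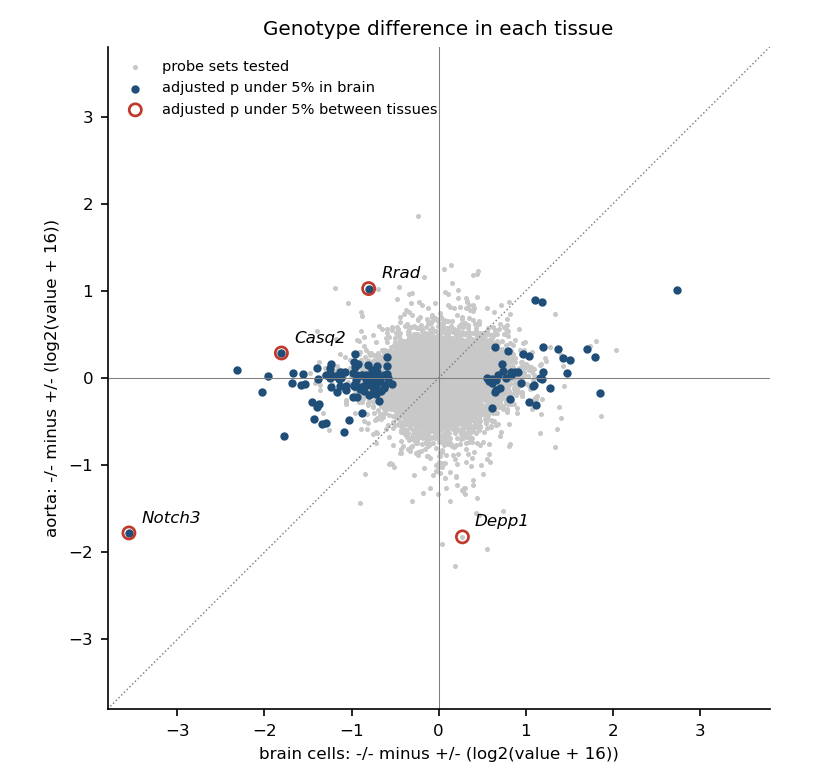
Difference between Notch3 -/- and Notch3 +/- in brain cells (x) and in aorta (y), in log2(value + 16), for 22519 probe sets in grey. Blue points passed 5% in brain and red circles mark the 4 past 5% between tissues; most blue points lie near 0 on the aorta axis, and the dotted line marks equal differences.

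Most of what passed in brain had no counterpart of that size in aorta. In brain 137 probe sets passed (0.608%; 95 lower and 42 higher), and 32 did in the 9 brain arrays alone. The count was 289 without brain +/- replicate E and 86 to 90 without brain -/- replicate C or D or aorta replicate 5556, 5561, 6166 or 5558. With an unadjusted p under 0.05 there were 3177 (14.1%). In aorta 2 passed (0.00888%), Notch3 and Depp1, and 5 passed without aorta +/- replicate 5556. With an unadjusted p under 0.05 there were 341 (1.51%). In the 6 aorta arrays alone 0 passed, where 980 had an unadjusted p under 0.05. With 1 weight per tissue 46 passed in brain (0.204%) and 23 in aorta (0.102%), so the gap in counts depended on the spread used. Of the 137 brain calls, 16 were dim in aorta and cannot be compared. Among the 121 others, 69 had the same sign in aorta, 10 did not overlap there in the same direction and 4 did not overlap in the opposite one, beside a background of 9.47% of probe sets without overlap in aorta. The lower calls that could be read in both tissues had a median of -0.93 in brain and -0.02 in aorta, and the higher calls 0.85 and 0.02. The brain medians are set by the choice of calls; the aortic ones are not. For 126 of the 137 the 95% interval of the difference between tissues, unadjusted, left out 0, but that interval shares the brain arrays that made the call. Over all probe sets the 2 differences, which share no array, had Pearson r = 0.069 and Spearman rho = 0.085, and 0.082 and 0.101 over the 18333 not dim in either tissue. Probes are not independent replicates.

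Of the smooth muscle contractile genes, 10 fell without Notch3 in brain and 0 passed in aorta. The list holds actin, myosin, tropomyosin and regulatory proteins of the contractile apparatus, and 34 of its 36 genes were tested. It also holds genes outside that apparatus, among them Casq2, Pln, Myocd, Itga8, Des, Synm, Vcl, Tns1 and Lpp. This list and those below were written with earlier results of these data known, so their directions are no independent evidence. All 34 had a difference between tissues below 0, where 48% of all probe sets did (33 after quantile normalization within tissues, and 31 to 34 leaving out 1 array at a time, lowest without brain +/- replicate E). The median was -0.61, made of -0.58 in brain and 0.01 in aorta, while the median of all probe sets was 0.02. Of all probe sets 48.6% lay below 0 in brain and 50.5% in aorta. In brain 10 members passed lower and 0 higher (0.422% of all probe sets passed lower), 6 of them in the brain arrays alone. In 17 members the genotypes did not overlap, all lower (3.33% of all probe sets did not overlap in brain, 1.87% lower and 1.45% higher). In aorta 0 passed, and genotypes did not overlap in 1 lower and 1 higher (4.78% and 4.69%). For the difference between tissues 1 member, Casq2, passed (0.0178% of all probe sets), and 5 did with tissue weights (0.0666%). In bulk RNA, fewer contractile cells among those sorted and less contractile RNA per cell cannot be told apart.

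Myh11, the smooth muscle myosin heavy chain, read 2437 to 4093 in Notch3 +/- brain and 541 to 1502 in Notch3 -/- brain. In aorta it read 8034, 8426 and 8483 in Notch3 +/- and 8420, 8643 and 8845 in Notch3 -/-, which is bright. Tagln, the actin-binding protein transgelin, read 2557 to 3576 and 651 to 1481 in brain and 8702, 8803 and 9257 against 8754, 9445 and 9516 in aorta. Flna, filamin A, which crosslinks actin, read 1990 to 2575 and 781 to 1299 in brain and 8555, 8628 and 9805 against 8389, 9123 and 9259 in aorta. In all 3 the brain groups stood apart and the aorta groups overlapped. Their differences between tissues were -1.72 (SE 0.35), -1.61 (SE 0.32) and -1.13 (SE 0.23), each with adjusted p = 0.1948. A second, dimmer probe set of Myh11 averaged 47.6 and 46.2 in brain, under the dim limit, and gave 0.08 between tissues.

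The aortic values of these genes sit high in the array's range. Of the 34 members 13 were bright in aorta, and whether signal near the top of the range moved less than the RNA was not tested. The 21 members that were not bright had a median difference between tissues of -0.57, all 21 below 0. Among members outside the naming rule, chosen after their values were seen, Actg2 (gamma smooth muscle actin) read 210 ± 77.7 and 79.4 ± 30.8 in brain and 1766 ± 203 and 1988 ± 307 in aorta, where it was not bright. Smtn (smoothelin, an actin-binding protein of contractile smooth muscle) read 513 ± 99.4 and 220 ± 39.5 in brain and 3049 ± 935 and 2680 ± 457 in aorta. Pln, phospholamban, the inhibitor of the sarcoplasmic calcium pump, was lower in both tissues with no overlap (2486 ± 620 and 1151 ± 208 in brain; 139 ± 15.4 and 85.6 ± 12.1 in aorta), and only the brain difference passed (-1.08, adjusted p = 0.005704; aorta -0.61, adjusted p = 1). At 2 other probe sets of Pln the brain differences were -1.06, which passed, and -0.61, which did not. At the other end Cald1, Vcl, Itga8 and Actn1 had brain differences between -0.15 and 0.02, none of which passed, so the list did not move as 1 block.

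**Figure D3:**
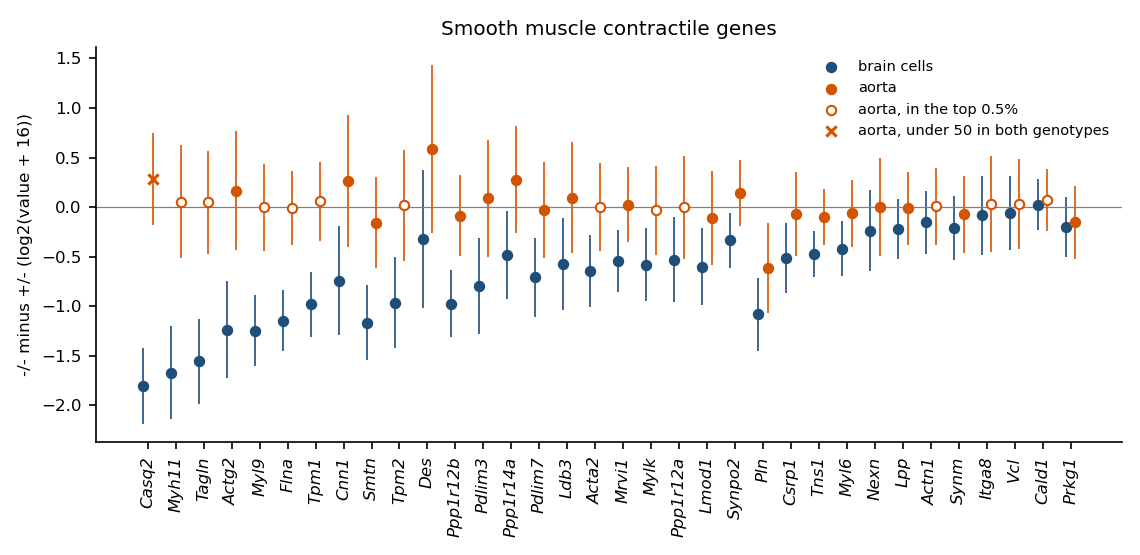
Difference between Notch3 -/- and Notch3 +/- in brain cells (blue) and aorta (orange) for the 34 contractile genes tested, in log2(value + 16) with 95% intervals of the fit, ordered by the difference between tissues. Open circles are bright in aorta and the cross is dim there; the brain points run from -1.80 at Casq2 to 0.02 at Cald1, while most aortic points lie near 0.

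Of the contractile members 30 had a RefSeq promoter window. A CArG box lay in the windows of 4 of them (Ldb3, Myl6, Myl9 and Vcl), 13.3% of genes beside 1.81% of all 27025 genes, and the RBPJ core in 13 (43.3% beside 28.3%). Of these 4, Myl9 passed in brain and the other 3 did not. The window of Myl9, the regulatory light chain of smooth muscle myosin, is shown as the one whose gene passed in brain. It lies at chr2:156775214-156775513 (+ strand), and the CArG box, in capitals, begins 161 bases before the start. Myl9 itself read 3330.2 ± 931 and 1382 ± 298 in brain and 8577.5 ± 415 and 8587 ± 776 in aorta.
Myl9: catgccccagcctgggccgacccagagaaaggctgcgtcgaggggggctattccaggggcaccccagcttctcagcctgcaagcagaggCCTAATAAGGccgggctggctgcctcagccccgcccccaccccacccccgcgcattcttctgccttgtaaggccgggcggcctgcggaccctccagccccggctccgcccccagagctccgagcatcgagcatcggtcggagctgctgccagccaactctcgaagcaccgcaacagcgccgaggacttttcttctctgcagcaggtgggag

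Ion channels and pumps of smooth muscle leaned the same way with fewer calls. Of 21 tested, 19 had a difference between tissues below 0 (48% of all probe sets; median -0.39) and 0 passed between tissues. In brain 2 passed lower (0.422% of all probe sets), the T-type calcium channels Cacna1h and Cacna1g. Cacna1g read 151 and 74.2 on average in brain and 61.3 and 54.9 in aorta. Kcnma1, the pore of the large-conductance calcium-activated potassium channel, did not overlap in either tissue and ran in opposite directions (averages of 87.6 and 62.9 in brain, 429 and 504 in aorta), with a difference between tissues of -0.62 that did not pass (adjusted p = 0.813; -0.32 and -0.04 at 2 other tested probe sets). Kcnab1, a potassium channel beta subunit, read 306 and 164 in brain and 1588 and 1747 in aorta (-0.88, adjusted p = 0.997), and 0.08 at a second probe set that was dim in brain.

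Pericyte and mural markers gave 17 of 23 members below 0 (48% of all probe sets), with a median of -0.29, but 8 were dim in aorta. In brain 1 of them passed lower (0.422% of all probe sets). It was Ifitm1, an interferon-induced membrane protein (2063 and 1068 on average, -0.94, limma adjusted p = 0.005704). Rgs5, a regulator of G-protein signalling that is a standard pericyte marker, read 11728 to 16443 and 8957 to 10376 in brain and 7921 to 8126 and 8182 to 8531 in aorta, where it was bright. Genotypes did not overlap in either tissue, in opposite directions, and its -0.49 did not pass (adjusted p = 0.99). Its 3 other tested probe sets gave differences between tissues of -1.55, -0.35 and 1.17, the last with the opposite sign in both tissues (0.60 in brain, -0.56 in aorta), and none passed. Vasoactive receptors were balanced, with 8 of 15 below 0 and a median of -0.02.

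Within the Notch pathway no gene but Notch3 passed in any contrast. Among ligands and other receptors, 6 of 9 members had a difference below 0 (48% of all probe sets), with a median of -0.14. Jag1, a ligand made by smooth muscle and endothelium, read 743 and 575 in brain and 692 and 885 in aorta, a difference between tissues of -0.72 (SE 0.26, adjusted p = 0.933; -0.08 at a second, dimmer probe set). Jag2 read 974 and 744 in brain and was dim in aorta; its difference between tissues was -0.40, and 0.11 at a second probe set. Among target genes 6 of 7 lay below 0, with a median of -0.29. Heyl, a mural-cell target, read 711 to 1285 in Notch3 +/- brain and 535 to 654 in Notch3 -/- brain, without overlap. In aorta it read 686 to 1245 and 819 to 1174 (difference between tissues -0.58, SE 0.29, limma adjusted p = 0.997). A second tested probe set of Heyl averaged 284 and 268 in brain (-0.09) and 359 and 408 in aorta, with -0.28 between tissues. Hes1 read 386 to 702 and 178 to 483 in brain, and 57.6 to 111 and 81.6 to 102 in aorta (-0.83, SE 0.37). Hey2 read 116 and 86.2 in brain and 618 and 674 in aorta (-0.34, SE 0.46). The 18 processing and nuclear factors, which include the proteases, RBPJ, Mastermind and the Fringe enzymes, were split 7 below and 11 above 0, with a median of 0.06.

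A second set of genes stood apart in aorta and not in brain: transcripts induced by glucocorticoids, and the metallothioneins, small metal-binding proteins that the same hormones and zinc induce. The list was written with earlier results of these data known, and 7 of its genes had been named from them (Mt1, Mt2, Sgk1, Ddit4, Cdkn1a, Angptl4 and Arrdc3), so its direction in aorta is no independent evidence. Of 24 members tested, 23 had a difference between tissues above 0, with a median of 0.80, made of 0.04 in brain and -0.77 in aorta. Of all probe sets 48% lay below 0 in the difference between tissues. In aorta the genotypes did not overlap in 20 members, 19 lower without Notch3 (background 4.78%) and 1 higher, the zinc exporter Slc30a1. In brain genotypes overlapped in all 24. In the equal-spread fit 0 members passed in any contrast, with 19 of 24 at an unadjusted p under 0.05 in the 6 aorta arrays alone. With 1 weight per tissue 9 passed lower in aorta (0.0888% of all probe sets), and 1, Glul, passed between tissues (0.0666%). Leaving out the 7 named earlier, 12 of 17 did not overlap lower in aorta, 3 passed there with tissue weights, and the medians were -0.73 in aorta, -0.01 in brain and 0.53 between tissues.

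Sgk1, the serum- and glucocorticoid-induced kinase, read 1527, 2334 and 2510 in Notch3 +/- aorta and 986, 1035 and 1064 in Notch3 -/- aorta. Its brain arrays overlapped, at 1559 to 2488 and 2066 to 4103, and the difference between tissues was 1.49 (SE 0.30, adjusted p = 0.1948). Glul, glutamine synthetase, read 1594, 2000 and 2480 against 1070, 1224 and 1229 in aorta, and 7899 to 12452 against 11437 to 17864 in brain (1.34, SE 0.25, adjusted p = 0.1585; 0.04547 with tissue weights). Its other tested probe set was also lower in aorta (226 and 128, -0.73) but ran the other way in brain (613 and 442, -0.43), for a difference between tissues of 0.29 (adjusted p = 0.9973). Ddit4, a stress-induced inhibitor of mTOR complex 1, read 273, 339 and 361 against 96.3, 109 and 167 in aorta and 242 to 611 against 316 to 644 in brain (1.58, SE 0.38, adjusted p = 0.362). Angptl4, a secreted inhibitor of lipoprotein lipase, read 261, 298 and 412 against 143, 151 and 188 in aorta and 153 to 263 against 196 to 310 in brain (1.12, SE 0.29, adjusted p = 0.44). At the probe sets listed by array the aorta groups of these genes stood apart and the brain groups overlapped.

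Other members, outside the naming rule and chosen after their values were seen, had like sizes in aorta. Mt1 read 1683 ± 286 and 745 ± 66.4 in aorta and 5029.96 ± 2852 and 4910.1 ± 1530.2 in brain. Mt2 read 1594 ± 561 and 594 ± 33.95 in aorta and 3377 ± 1123 and 3314 ± 907 in brain. The period gene Per1, also a target of the glucocorticoid receptor, read 353 ± 108 and 160 ± 26.0, and Fkbp5, a cochaperone of that receptor, 347 ± 94.3 and 178 ± 26.8. Nfkbia, the inhibitor of NF-kappa-B, read 6599.9 ± 1021 and 3979 ± 789 in aorta and 23738 ± 3288 and 23820.1 ± 2870.1 in brain. The phosphatase Dusp1 did not share this, at 2487 ± 92.7 and 2734 ± 985 in aorta. Errfi1, a feedback inhibitor of the EGF receptor, averaged 3893 and 1387 in aorta and 3859 and 2082 in brain, where its genotypes overlapped and its -0.90 did not pass (adjusted p = 0.1611; 0.08 at a second probe set of Errfi1).

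**Figure D4:**
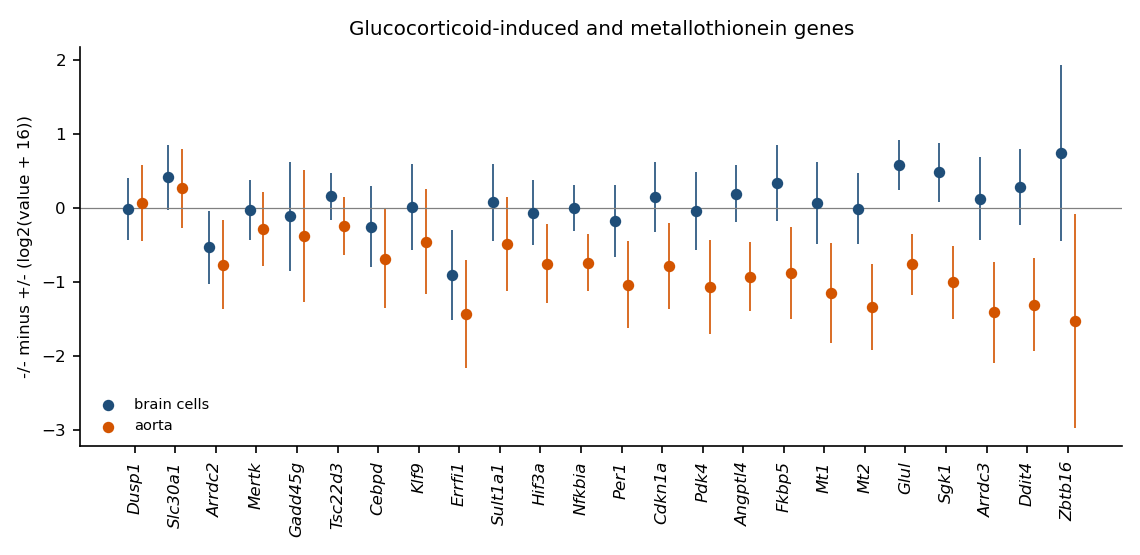
Difference between Notch3 -/- and Notch3 +/- in brain cells (blue) and aorta (orange) for the 24 glucocorticoid-induced and metallothionein genes tested, in log2(value + 16) with 95% intervals of the fit, ordered by the difference between tissues. Most aortic points lie below 0 and most brain points near it; Dusp1 and Slc30a1 are the exceptions in aorta.

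A glucocorticoid response element was searched as AGAACA, any 3 bases, then TGT on both strands, which overlaps the half-site AGAACA. It lay in the promoter window of 1 of the 21 members with windows (4.76%, beside 0.481% of all genes), Sgk1, and the half-site in 3 (14.3% beside 21.3%). Of 6 windows of Sgk1 the one holding the element is shown, at chr10:21993640-21993939 (+ strand). The capitals mark 2 overlapping matches, 1 on each strand, that begin 189 bases before the start. Elements farther from a start are outside these windows.
Sgk1: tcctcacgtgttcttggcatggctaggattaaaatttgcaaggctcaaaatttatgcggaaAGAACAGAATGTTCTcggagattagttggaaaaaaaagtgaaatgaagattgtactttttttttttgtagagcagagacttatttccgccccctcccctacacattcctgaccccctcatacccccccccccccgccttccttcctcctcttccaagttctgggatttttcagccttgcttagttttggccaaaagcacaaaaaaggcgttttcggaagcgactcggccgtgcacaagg

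Other lists were read for aortic genotype and for single aorta arrays. Adipocyte genes summed to 21142 to 27470 in Notch3 +/- and 15107 to 25377 in Notch3 -/- aorta, so the genotypes overlapped. Of these genes 11 were tested, with a median of -0.32 in aorta and 0 calls. Genotypes did not overlap in 1 of the 11 (9.47% of all probe sets). None of the 14 averaged under 50 in Notch3 +/-. In brain 5 of the 11 were dim. Aorta +/- replicate 5556 stood apart in neuronal genes and in some glial ones. Snap25, a synaptic vesicle fusion protein, read 151.9 in it and 0.5 to 10.1 in the other 5 aorta arrays. Syt1, a calcium sensor of vesicles, read 269 and 25.4 to 46.8. Of glial genes, Mbp read 371 and 56.1 to 66.4, and Cdh19 read 83.0 and 21.6 to 31.4, while Mobp and Cnp did not stand apart. Without that array the list of glucocorticoid-induced genes and metallothioneins kept 23 of 24 above 0 with a median of 0.94. The part of neuronal and glial transcripts in that result was not tested. The 15 circadian clock genes tested had a median difference between tissues of -0.02, with 1 of 15 not overlapping in aorta (9.47% of all probe sets). The clock gene Per1 was counted in the glucocorticoid list and not in this one, and its aortic difference was -1.03. A shift of the clock was not tested. The part of adipocytes in the result was not tested.

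Immediate early genes, which respond within minutes to handling and growth signals, had a median of -0.14 with 13 of 22 below 0, and 0 passed in any contrast. Ier2 read 188, 225 and 251 in Notch3 +/- aorta and 291, 316 and 317 in Notch3 -/- aorta, against 2183 and 1552 on average in brain (-0.96, SE 0.23, adjusted p = 0.362). Fos read 691, 849 and 900 against 796, 2484 and 3052 in aorta, so that 2 of 3 Notch3 -/- arrays were high and the third was not. In brain it read 11540 to 16900 and 9617 to 14764.

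Fibroblast genes leaned the other way from the contractile ones in brain. Of 17 tested, 13 had a difference between tissues above 0, with a median of 0.58 (0.49 in brain, -0.01 in aorta), while 48% of all probe sets lay below 0. In brain 3 passed higher (0.187% of all probe sets passed higher), 1 of them in the brain arrays alone, and 0 passed between tissues. Dcn, the proteoglycan decorin, read 174 to 491 and 431 to 925 in brain and 7794 to 9228 and 8577 to 9351 in aorta, where it was bright (1.14, SE 0.37, adjusted p = 0.814). A second probe set of Dcn, dim in brain, gave -0.15. Aldh1a2, the enzyme that makes retinoic acid, read 10.3 to 66.4 in Notch3 +/- and 70.8 to 159 in Notch3 -/- brain and was dim in aorta. Of the 17 members 5 were bright and 2 dim in aorta. The size of the median depended on the scale: it was 0.33 with 1 added before log2, 0.40 with 64, and 0.30 without brain +/- replicate H. Summed fibroblast intensity was 7808 to 11804 and 11039 to 16937 in brain and 61361 to 65558 and 61571 to 64757 in aorta. Extracellular matrix genes, by contrast, were split 14 below and 17 above 0, with a median of 0.05.

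**Figure D5:**
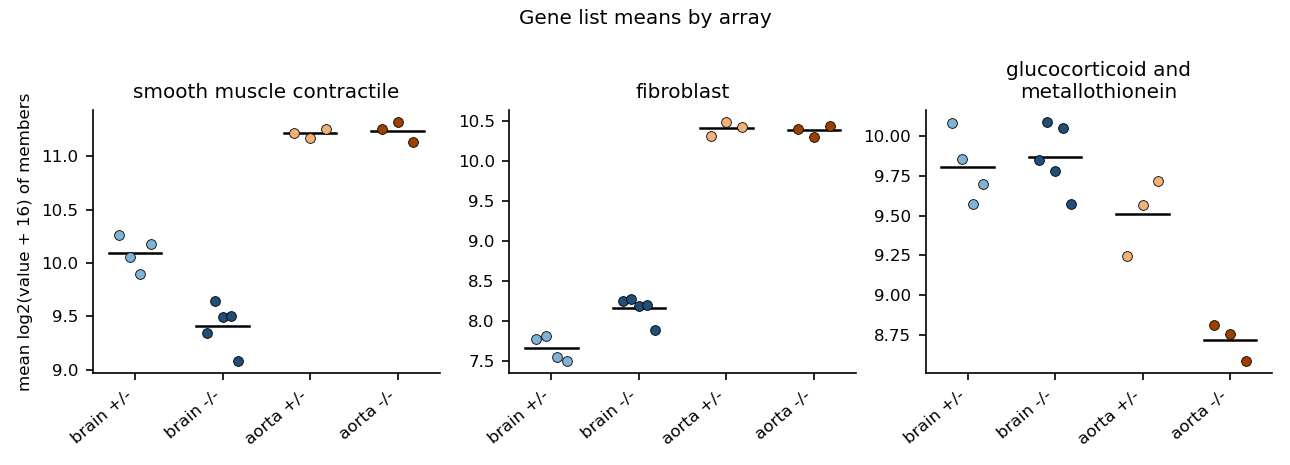
Mean log2(value + 16) of the members tested of 3 gene lists, 1 point per array, with group means as black lines. Contractile means are 9.89 to 10.26 in Notch3 +/- and 9.08 to 9.65 in Notch3 -/- brain and overlap in aorta, fibroblast means are 7.50 to 7.81 and 7.88 to 8.27 in brain, and the glucocorticoid and metallothionein means separate in aorta only (9.25 to 9.72 and 8.59 to 8.81).

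The means over members showed the same in each array. Contractile means were 9.89, 10.05, 10.17 and 10.26 in Notch3 +/- brain and 9.08, 9.35, 9.49, 9.50 and 9.65 in Notch3 -/- brain. In aorta they were 11.17, 11.22 and 11.25 against 11.13, 11.26 and 11.32. The glucocorticoid and metallothionein means were 9.25, 9.57 and 9.72 in Notch3 +/- and 8.59, 8.76 and 8.81 in Notch3 -/- aorta, and 9.58 to 10.08 and 9.57 to 10.09 in brain. Each list thus separated the genotypes in 1 tissue and overlapped in the other. These lists were chosen with earlier results known, so the separations carry no test.

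For the average of the tissues 3 probe sets passed (0.0133%; 6.43% had an unadjusted p under 0.05 and 49.8% lay below 0), the pair of Notch3 and Lrrc10b, a leucine-rich repeat protein. Lrrc10b read 327 to 408 and 112 to 145 in brain, and 3.00 to 11.4 and 2.30 to 2.70 in aorta, where it was dim, so only its brain fall (-1.38, adjusted p = 0.0002442) can be read as a level. Its call for the average did not pass without aorta replicate 5556, 5558 or 5559 (adjusted p between 0.05486 and 0.07452). Genotypes did not overlap in either tissue at 53 probe sets with the same direction (0.235%; 0.115% lower and 0.12% higher in both) and at 22 with opposite directions (0.0977%; 0.0444% lower in brain and 0.0533% higher there). By smallest p the opposite genes were Rrad, Crnkl1, Fam107a, Plekhh1, Fzd5, Ppp5c, Gdi2 and Fam114a1, of which Rrad alone passed. Crnkl1, a splicing factor, read 34.4 to 60.5 and 94.3 to 166 in brain and 98.3 to 104 and 70.3 to 92.7 in aorta (1.43, SE 0.28, adjusted p = 0.1875). A second probe set of Crnkl1 had the same signs, with 0.40 between tissues (adjusted p = 0.9973). Fzd5, a Wnt receptor, read 138 and 104 in brain and 356 and 485 in aorta (-0.80, SE 0.22, adjusted p = 0.527).

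Genes beside Notch3 were checked because alleles linked to a targeted locus can travel with it. Of the 15 genes on either side in the RefSeq order, 26 of 30 were on the array and 19 were tested. In brain 1 passed (0.608% of all probe sets), Ephx3, an epoxide hydrolase and the next gene on 1 side, at 150 to 232 and 56.2 to 108 (-1.26, adjusted p = 0.005243). It was dim in aorta, at 12.9 to 27.7 and 15.3 to 28.0. None of the 19 passed in aorta, between tissues or on average, and none lacked overlap in aorta (9.47% of all probe sets), while 2 did in brain (3.33%).

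Of the remaining lists none had a member past 5% between tissues, where 0.0178% of all probe sets passed and 48% lay below 0. In brain 0.187% of all probe sets passed higher. Ribosomal proteins had 18 of 20 below 0 with a median of -0.14, of which 10 were bright in aorta. Inflammatory cytokines had 13 of 16 above 0 (median 0.34), with 6 dim in aorta and 1 brain call, the neutrophil chemokine Cxcl2, at 829.8 and 2398 in brain (1.70, adjusted p = 0.01732). Interferon genes had 10 of 18 above 0 (median 0.16) and 1 brain call, Slfn5, at 1 of its 2 tested probe sets. Endothelial (-0.00), microglial (0.15) and astrocyte (0.17) medians were smaller than those of the contractile list, and oligodendrocyte genes (0.26) were dim in aorta in 7 of 9.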

How the data were processed

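RNA was hybridised to Affymetrix mouse genome arrays (15 µg of cRNA each), and the authors scaled the intensity of all probe sets to a target of 150 per array, per the labels' design text. The deposited linear intensity values were used unchanged. No summary algorithm, background correction or genome build is named in the sources used here. Brain cells were sorted into column-kit lysis buffer and aorta RNA was taken with Trizol first, so tissue and extraction cannot be told apart in levels; a difference of differences compares genotypes within each.

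Of 45101 probe sets, 64 controls and those whose mean log2(value + 16) fell under the median were left out, which kept 22519. Gene symbols (34958 probe sets with 1, 932 with several, 9211 with none) came from the platform annotation, updated through RefSeq for 34754. One fit over 4 groups (limma 3.58.1, R 4.3.3, lmFit, eBayes with intensity trend, two-sided, Benjamini-Hochberg at 5% over all probe sets tested) gave the brain, aorta, between-tissue and average contrasts. Lists use the brightest tested probe set per gene and carry no test. The members and lists were chosen with earlier results of these data known. Named were Notch3, genes past 5% between tissues filled to 8 each way by smallest p, up to 4 members per list, up to 8 brain or aorta calls, up to 8 shared and up to 8 opposite genes, and neighbours that passed, with exceptions stated. Only the number of arrays sets the precision.

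The fit was tested on simulated data over the 22519 probe sets, with 50 changes of each size placed in Notch3 -/- brain arrays only. For the difference between tissues it recovered 0% of 1.5-fold, 18% of 2-fold, 70% of 4-fold and 80% of 8-fold changes, with 5 false of 89 calls. With 1 weight per tissue it recovered 2%, 26%, 78% and 80%, with 8 false of 101. Recovery of aortic changes was not tested. The data gave 4 calls, and fewer changes make the adjusted limit stricter, so these rates need not hold there.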

Additional observations from a re-analysis of the deposited data

Results flagged for a closer look

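The 4 genes whose genotype effects differed between brain and aorta in the fitted contrast are Notch3 (-1.78), Casq2 (-2.09), Rrad (-1.83) and Depp1 (2.10). Casq2 was dim in aorta, and Depp1 without Notch3 read under 10 there at the probe set that passed.

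In 56 checks of brain groups for an array far from the rest, 4 were found, where chance gives about 1 in 20 groups. Tesc read 765 in brain -/- replicate B and 251 to 338 in the other 4 arrays, and it passed between tissues without that array (adjusted p = 0.01211 by limma). Fam107a read 6979 in brain +/- replicate E and 9744 to 10238 in the others. Ephx3, the gene next to Notch3, read 149.7 in brain +/- replicate I and 217 to 232 in the others. The fibroblast mean was 7.882 in brain -/- replicate F and 8.18 to 8.27 in the others.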

How the results depend on the processing

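The 3 list medians (contractile, glucocorticoid and metallothionein, fibroblast) and the 35 named differences that were rerun kept their direction in the alternatives run, but calls did not. The other lists and genes were not rerun. Under the pooled spread the count between tissues was 4; it was 2 with a filter in both tissues, 13 with array weights, 15 with 1 weight per tissue and 19 with the joined fits. In brain (137) it was 67, 46 and 32 with array weights, tissue weights and the brain arrays alone, and 87 with no intensity trend. In aorta (2) it was 23 with either kind of weights, 1 with 64 added before log2 or the filter in both tissues, and 0 in the 6 arrays alone, where 980 had an unadjusted p under 0.05 by limma. For the average (3) it was 28 and 23 with array and tissue weights, 6 with 64 added and 1 with the filter in both tissues. Leaving out 1 array at a time gave 0 to 7 between tissues, 86 to 289 in brain, 2 to 5 in aorta and 2 to 6 for the average. It gave medians of -0.69 to -0.48 for contractile, 0.68 to 0.96 for glucocorticoid and metallothionein, and 0.30 to 0.65 for fibroblast genes. The fibroblast median was 0.3325 with 1 added, 0.4001 with 64, 0.4047 with the filter in both tissues and 0.4095 with array weights. The glucocorticoid and metallothionein median was 0.5283 over members not named before. With the dim limit at 100, 8249 probe sets were dim in aorta and 7256 in brain.

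Among the genes that passed, Rrad did not without brain replicates E (0.05568) or D (0.06333), aorta 5561, 6166, 5558 or 6167 (up to 0.1467), or with no trend (0.06379). Casq2 did not without 5561, 6166 or 5558 (up to 0.06286), nor Depp1 without 6166 or 5558. Lrrc10b missed for the average with 1 added (0.09335) and without aorta 5556 (0.07452), 5558 (0.05486) or 5559 (0.05745). The causes were not tested. The list alternatives and the joined fits were chosen after seeing the data. No paired analysis was possible because no replicate name is shared between the groups. With the aorta name series (55xx and 61xx, each with both genotypes) as a term, 4 probe sets passed between tissues, 104 in brain, 2 in aorta and 3 for the average.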
